A study of Rattus norvegicus with 8 samples.

Results

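The let-7 family passenger strands are the RNAs cut from the 3′ side of the let-7 hairpins. Their 7 members on the array, rno-let-7a-1-3p, rno-let-7b-3p, rno-let-7c-1-3p, rno-let-7d-3p, rno-let-7e-3p, rno-let-7f-1-3p and rno-let-7f-2-3p (rno, for rat, is left off where values follow), were chosen by name, as the miRNAs whose systematic name is one of these 3p arms, from the 758 rat miRNAs that the array measures. The right kidney was profiled in 4 nephrectomized and 4 sham-operated rats, all males of the inbred strain F344/NSlc aged 10 weeks. The nephrectomized rats had lost 1 kidney, and the kidney that remains after such an operation enlarges. The labels place the nephrectomized kidneys at day 2 and the sham kidneys at day 1 after surgery, while the design text gives 2 days, so by the labels the effects of time and surgery cannot be told apart.

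A miRNA is cut from the stem of an RNA hairpin as a short duplex by the enzymes Drosha and Dicer. Usually 1 strand, the guide, stays in an Argonaute protein and represses mRNAs that match its seed, while the passenger strand, once called the star strand, is released and broken down. In the let-7 family, known for restraining growth and the cell cycle and abundant in differentiated tissues such as the adult kidney, the guide is the 5p arm. Argonaute prefers a guide that starts with U or A.

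The mature sequences that RefSeq gives on the rat build GRCr8 show how alike the 3p arms are, with the seed, bases 2 to 8, in capitals. RefSeq entries were matched for 6 of the 7 members, and let-7c-1-3p is named only. First come the 3 members that were detected in these kidneys, then the 3 others.
let-7b-3p: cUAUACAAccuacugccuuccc
let-7d-3p: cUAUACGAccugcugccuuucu
let-7a-1-3p: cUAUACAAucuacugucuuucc
let-7e-3p: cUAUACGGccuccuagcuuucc
let-7f-1-3p: cUAUACAAucuauugccuucc
let-7f-2-3p: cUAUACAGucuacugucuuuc
All 6 start with C. The seed UAUACAA is shared by let-7a-1-3p, let-7b-3p and let-7f-1-3p, and let-7d-3p, let-7e-3p and let-7f-2-3p each have a seed of their own. Counted from the 5′ end, let-7a-1-3p and let-7f-2-3p are identical at 20 of 21 positions, let-7a-1-3p and let-7b-3p at 19 of 22, and let-7b-3p and let-7d-3p at 18 of 22. The guides of the 3 detected members are printed for comparison, with the family seed GAGGUAG in capitals.
let-7a-5p: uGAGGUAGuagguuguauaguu
let-7b-5p: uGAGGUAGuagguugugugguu
let-7d-5p: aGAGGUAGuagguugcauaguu
These guides start with U, or with A in let-7d-5p.

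let-7a-1-3p lies at chr17:16320196-16320217, let-7f-1-3p at chr17:16320564-16320584 and let-7d-3p at chr17:16322327-16322348, all on the plus strand, so these 3 hairpins are neighbours. let-7b-3p lies at chr7:118684098-118684119 (plus strand), beside the let-7c-2 hairpin, whose 3p arm has the same sequence as let-7a-1-3p. The array's let-7a-1-3p probes list both arms as targets, so that signal belongs to 2 hairpins. let-7e-3p lies at chr1:67350288-67350309 and let-7f-2-3p at chrX:24460102-24460122, where miR-98, another let-7 relative, is its neighbour. The let-7a-1 and let-7d hairpins of the chromosome 17 cluster, which encode 3p arms of detected sequence, are printed with both arms in capitals, the 5p arm first, to show the strands that are compared below.
let-7a-1 hairpin, chr17:16320133-16320226: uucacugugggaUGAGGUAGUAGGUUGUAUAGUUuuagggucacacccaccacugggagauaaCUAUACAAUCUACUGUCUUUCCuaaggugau
let-7d hairpin, chr17:16322260-16322357: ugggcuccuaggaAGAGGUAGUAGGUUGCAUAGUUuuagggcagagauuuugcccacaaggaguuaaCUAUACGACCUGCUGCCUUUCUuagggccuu

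Agilent's software called 224 to 230 miRNAs detected on a nephrectomized array and 242 to 253 on a sham array, and 494 of 758 on none. The 6 tubule markers, such as miR-192-5p, were detected on all 8 arrays, with summed scaled signals of 6677 to 7072 in nephrectomized kidneys and 6937 to 7204 in sham kidneys. The leukocyte list had 5 of 6 miRNAs detected on all arrays and summed signals of 617.4 to 675.3 in nephrectomized and 667.6 to 716.2 in sham kidneys. The red cell list had 1 of 3 detected on all arrays, with sums of 46.3 to 115.1 in nephrectomized and 44.7 to 94.4 in sham kidneys, and the 3 striated muscle miRNAs and liver miR-122-5p were detected on none. The part of these lists in the results was not tested. All arrays lay on 1 slide, and the first index of the array's position in the file headers was 2 for every nephrectomized and 1 for every sham array, so position and group cannot be told apart.

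Only some passenger strands gave a signal. let-7a-1-3p, let-7b-3p and let-7d-3p were called detected on 4 of 4 nephrectomized and 4 of 4 sham arrays. let-7c-1-3p, let-7e-3p, let-7f-1-3p and let-7f-2-3p were detected on 0 of 4 arrays of either group. The other 3p arms of the family on the array, let-7g-3p, let-7i-3p and miR-98-3p, were likewise detected on none, whereas all 9 let-7 and miR-98 5p arms were detected on all 8 arrays. Of all 313 3p arms on the array 196 were detected on none, and of 309 5p arms 193. let-7a-1-3p was detected while let-7f-1-3p, with the same seed, and let-7f-2-3p, with almost the same sequence, were not. Their probes differ, however. The longest has 22 bases for let-7a-1-3p, 19 for let-7f-1-3p and 20 for let-7f-2-3p. The 19-base and 20-base probes of let-7a-1-3p gave signals, scaled as described below, of only 1.38 and 3.14 (means of 8 arrays). What let-7f-1-3p and let-7f-2-3p would give with longer probes was not tested. Whether the let-7a-1-3p signal came from the let-7a-1 or the let-7c-2 hairpin cannot be told apart.

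let-7b-3p was the brightest member. Its scaled signal, in fluorescence units with arrays brought to a common 75th percentile (taken over 214 miRNAs that every array detected), was 23.0, 27.4, 25.3 and 23.1 in nephrectomized kidneys 1 to 4, against 21.9, 22.0, 19.0 and 20.8 in sham kidneys 1 to 4. Every nephrectomized array stood above every sham array, by a narrow gap. Such separation, in this direction, occurred for 25 of the 238 miRNAs tested, which is 10.5%, so it does not set let-7b-3p apart. On the log2 scale the level was 4.62 ± 0.12 in nephrectomized and 4.38 ± 0.099 in sham kidneys (SD, n = 4 each). The difference, nephrectomized minus sham, was +0.24 ± 0.074 (SE, with a 95% interval of +0.071 to +0.41), or 1.18-fold, with a limma adjusted p of 0.131 across 238 tested miRNAs and an unadjusted limma p of 0.0116.

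let-7d-3p was the second brightest. Its scaled signal was 8.31, 10.5, 10.9 and 9.19 in nephrectomized kidneys 1 to 4, against 8.26, 8.31, 7.34 and 8.51 in sham kidneys 1 to 4. Nephrectomized kidneys 2, 3 and 4 stood above all sham kidneys and nephrectomized kidney 1 lay among them, so the groups overlapped. The log2 difference was +0.26 ± 0.092 (SE, 95% interval +0.042 to +0.47), or 1.19-fold, with a limma adjusted p of 0.155 and an unadjusted limma p of 0.0248.

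let-7a-1-3p was the dimmest detected member. Its scaled signal was 5.96, 6.61, 7.33 and 5.89 in nephrectomized kidneys 1 to 4, against 6.12, 6.46, 5.90 and 5.71 in sham kidneys 1 to 4. The groups overlapped, with only nephrectomized kidneys 2 and 3 above the highest sham kidney. The log2 difference was +0.088 ± 0.078 (SE, 95% interval -0.091 to +0.27), with a limma adjusted p of 0.543.

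Together, 0 of the 3 tested members passed the adjusted threshold of 0.05, and neither did any other miRNA (0% of 238). At an unadjusted limma p under 0.05, 2 of the 3 were called, both higher in nephrectomized kidneys. Among all 238 miRNAs 15.5% were called higher at this p and 20.2% in either direction. All 3 members had differences above 0, with a median of +0.24, while 47.5% of all tested miRNAs did, with a median of -0.0077. The members were dim: let-7a-1-3p and let-7d-3p were among the 60 dimmest tested miRNAs and let-7b-3p among the next 59, and these sets had median differences of +0.011 and +0.023. In the 60 brightest, which hold all 9 5p arms, the median was -0.025.

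**Figure D1:**
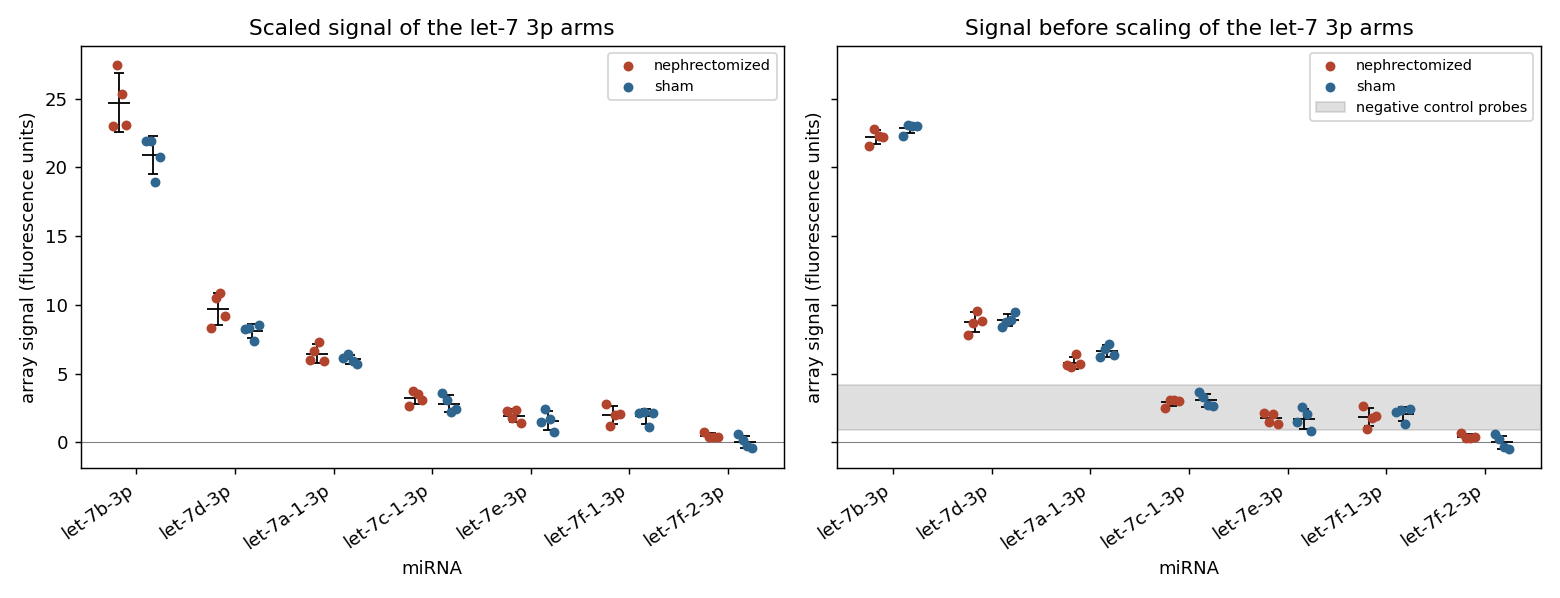
Signal of the 7 let-7 3p arms in fluorescence units, with 1 point per array, nephrectomized left of sham, and bars for mean and SD (n = 4 each). On the left, after scaling, let-7b-3p is higher on every nephrectomized array; on the right, before scaling, its groups lie close together at 21.6 to 22.8 in nephrectomized and 22.3 to 23.1 in sham kidneys, and the 4 undetected members lie within or below the grey band of negative control probes.

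Before the scaling, all 3 differences were below 0. The unscaled let-7b-3p had a signal of 21.6, 22.8, 22.3 and 22.2 in nephrectomized kidneys 1 to 4, and of 22.3, 23.1, 23.0 and 23.0 in sham kidneys 1 to 4, a log2 difference of -0.041. The unscaled let-7d-3p ran from 7.80 to 9.57 in nephrectomized and from 8.40 to 9.45 in sham kidneys, a log2 difference of -0.027, and let-7a-1-3p averaged 5.80 ± 0.44 and 6.63 ± 0.43 (SD, n = 4 each), a difference of -0.19. The 75th percentile by which arrays were divided was lower in nephrectomized arrays, 7.40 ± 0.095 against 7.68 ± 0.11 in sham arrays (log2, SD, n = 4 each). Most miRNAs followed it, and the median unscaled difference over all 238 was -0.29.

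Over the 8 arrays the unscaled log2 signal of let-7b-3p had an SD of 0.034, the third lowest among the 237 tested miRNAs with a signal above 0 on every array, whose median SD was 0.19. Its own guide let-7b-5p had an unscaled SD of 0.17, and for let-7d-3p and let-7a-1-3p the SD was 0.093 and 0.14. After scaling the order turned round, and let-7b-3p had an SD of 0.16 against 0.056 for let-7b-5p. So let-7b-3p kept nearly the same raw signal on bright and dim arrays. The control RNAs that Agilent adds before labelling differed by -0.37 on the unscaled log2 scale, nephrectomized minus sham, and those added at hybridisation by -0.039. Whether the steady let-7b-3p signal reflects labelled kidney RNA was not tested.

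The miRNAs whose scaled pattern was most like each member over the 8 arrays, by the root mean square difference of centred log2 levels among the tested miRNAs outside the family, were miR-409a-3p (0.019) and miR-702-3p (0.022) for let-7b-3p. For let-7d-3p they were miR-92b-3p (0.032) and miR-668 (0.033), and for let-7a-1-3p miR-329-3p (0.055) and miR-296-5p (0.056). The median distance to all tested miRNAs was 0.16 for let-7b-3p, 0.18 for let-7d-3p and 0.13 for let-7a-1-3p. The neighbours of let-7b-3p had log2 differences of +0.23 ± 0.077 and +0.23 ± 0.076 (SE), and those of let-7d-3p +0.25 ± 0.081 and +0.26 ± 0.084.

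**Figure D2:**
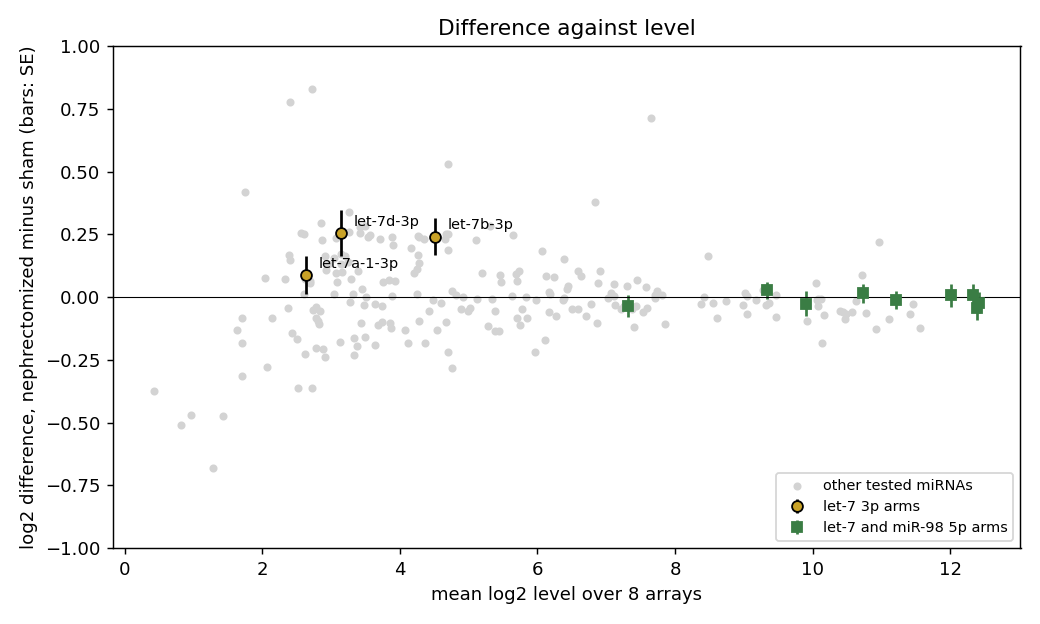
Log2 difference, nephrectomized minus sham, against the mean log2 scaled level over 8 arrays for the tested miRNAs, with bars for the SE of the let-7 arms; 2 miRNAs lie beyond the axis. The 3 detected 3p arms sit at the dim end, at +0.088 to +0.26, and the 9 5p arms at the bright end, at -0.045 to +0.027.

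The 4 undetected members stayed near the level of the array's negative controls, whose 7 kinds of probe had median unscaled signals between 0.926 and 4.20 over all arrays. let-7c-1-3p was the brightest of them, with a scaled signal of 3.25 ± 0.48 in nephrectomized and 2.82 ± 0.63 in sham kidneys (SD, n = 4 each, as below). let-7e-3p had 1.93 ± 0.46 and 1.57 ± 0.69 in nephrectomized and sham kidneys, and its probes also list let-7a-2-3p as a target. let-7f-1-3p had 2.00 ± 0.65 in nephrectomized and 1.90 ± 0.55 in sham kidneys. let-7f-2-3p, from the X chromosome, had 0.459 ± 0.19 in nephrectomized and 0.0127 ± 0.46 in sham kidneys. In all 4 the groups overlapped, and none of their 128 spots each, 16 on each array, was well above background, so they were not tested.

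Each miRNA is read by up to 4 probes of stepped length, which pair with its 3′ end. The longest probe of each detected member is printed with the bases that the shortest one lacks in capitals, because the members differ in how much those bases matter.
let-7b-3p probe: gggaaggcagtagGTT
let-7d-3p probe: agaaaggcagcaggtCGT
let-7a-1-3p probe: ggaaagacagtagattgtaTAG
For let-7b-3p, all 4 probes, of 13 to 16 bases, had almost the same scaled signal, between 22.6 and 23.1 as means of 8 arrays, and 128 of 128 spots were well above background. For let-7d-3p the 15-base and 16-base probes gave 1.92 and 3.07, the 17-base probe 10.7 and the 18-base probe 21.4 ± 3.0 in nephrectomized and 18.6 ± 1.6 in sham kidneys (SD, n = 4 each), and 45 of 128 spots were well above background. For let-7a-1-3p only the 22-base probe was bright, at 17.3, while the probes of 19 to 21 bases gave 1.38 to 3.16, and the 22-base probe held 69.2% of the member's signal and 32 of its 33 spots well above background. The let-7b-3p signal was already there with the shortest probe, and the other 2 signals appeared with the longest ones.

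By probe, the scaled let-7b-3p signal was higher in nephrectomized kidneys with all 4 probes, by +0.18 to +0.34 on the log2 scale. All probes of an array share its scaling factor. Before scaling, the mean was lower in nephrectomized kidneys with the 13-base, 14-base and 16-base probes, at 22.1 against 23.1 with 13 bases. Only with the 15-base probe was it higher, at 23.1 against 22.3. After scaling, the bright 18-base and 17-base probes of let-7d-3p differed by +0.20 ± 0.11 and +0.22 ± 0.16 (SE). The 22-base probe of let-7a-1-3p had a scaled signal of 17.6 ± 1.9 in nephrectomized and 16.96 ± 1.4 in sham kidneys (SD, n = 4 each), a log2 difference of +0.055 ± 0.097 (SE). Against the other mature rat miRNAs in RefSeq, the longest probe of let-7a-1-3p pairs without a gap with at most 14 bases of a miRNA of another sequence, miR-3596d, that of let-7b-3p with 10 of let-7i-3p and that of let-7d-3p with 9 of miR-465-3p. All 3 of these were detected on 0 of 8 arrays by their own probes. G and C made up 56.2% of the longest let-7b-3p probe, 55.6% of that of let-7d-3p and 36.4% of that of let-7a-1-3p. Tested miRNAs whose longest probe had 50% to under 60% G and C had a median log2 difference of -0.0013 (n = 71), those under 40% -0.058 (n = 37), and those of 60% or more +0.10 (n = 51).

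**Figure D3:**
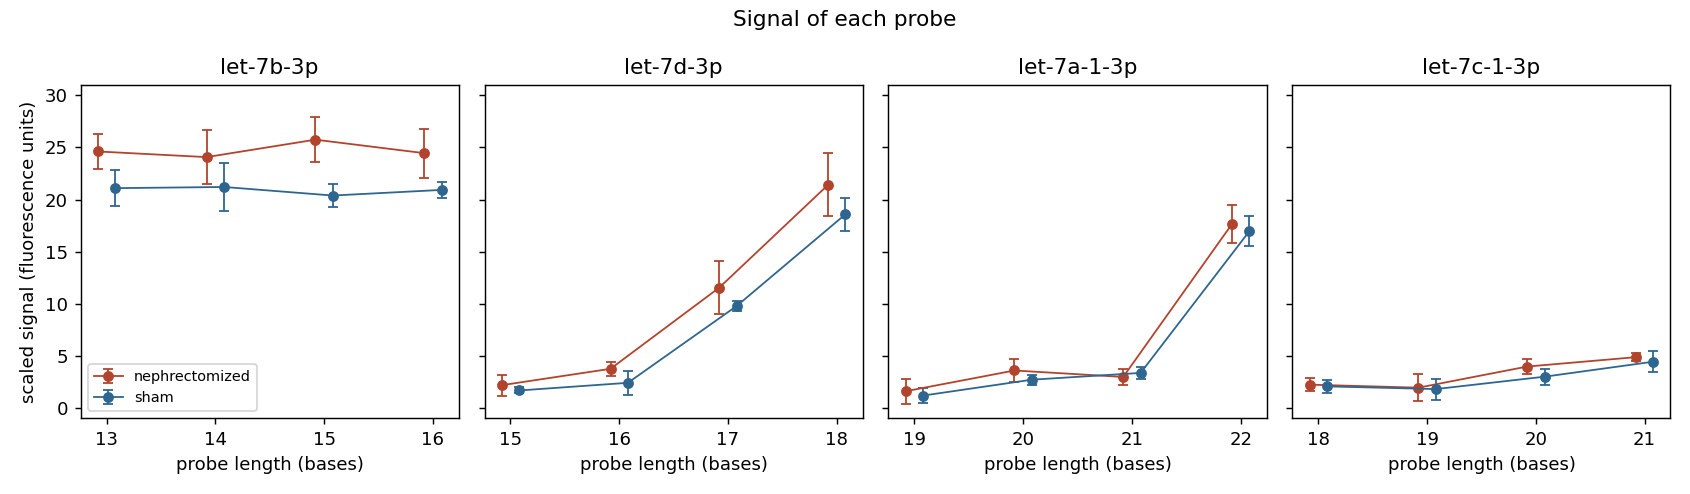
Scaled signal of each probe against its length in bases for the 3 detected members and let-7c-1-3p, with nephrectomized points drawn left of sham points and bars for SD (n = 4 each). The let-7b-3p signal is level from 13 to 16 bases. That of let-7d-3p climbs to 21.4 in nephrectomized and 18.6 in sham kidneys at 18 bases. That of let-7a-1-3p is 17.6 in nephrectomized and 16.96 in sham kidneys at 22 bases. let-7c-1-3p stays at or below 4.86 in nephrectomized and 4.43 in sham kidneys.

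The guides were far brighter than the passenger strands. let-7b-5p had a scaled signal of 4142 ± 204 in nephrectomized and 4117 ± 125 in sham kidneys (SD, n = 4 each), let-7d-5p 1712 ± 42 and 1695 ± 60, and let-7a-5p 5451 ± 140 and 5539 ± 232. The ratio of the arms is one of signals read by different probes, not of molecules. Each signal is the average over the probes of a miRNA, dim probes included. let-7b-3p gave 0.596% of the signal of let-7b-5p in nephrectomized and 0.507% in sham kidneys, let-7d-3p 0.565% and 0.478% of let-7d-5p, and let-7a-1-3p 0.118% and 0.109% of let-7a-5p. let-7a-5p is also cut from the let-7a-2 hairpin and the let-7a-1-3p probes also read let-7c-2-3p, so that last ratio mixes 3 hairpins.

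For the undetected members only a bound on the ratio exists. It sets the guide's mean signal against the mean, over arrays, of the highest of the member's own signal, the lowest signal of any miRNA detected on that array and the floor of 0.925. Where the own signal is the highest of these, as on every array for let-7c-1-3p, the fold is that of the measured signals. That own signal lies at the level of the negative controls, so this fold is a bound too. On this basis let-7c-5p, which the let-7c-1 and let-7c-2 hairpins share, was at least 1587-fold brighter than let-7c-1-3p in nephrectomized and at least 1819-fold in sham kidneys. let-7e-5p was at least 494-fold brighter than let-7e-3p in nephrectomized and at least 601-fold in sham kidneys. let-7f-5p, which the let-7f-1 and let-7f-2 hairpins share, was at least 2640.1-fold brighter than let-7f-1-3p and at least 3937-fold brighter than let-7f-2-3p in nephrectomized kidneys, and in sham kidneys at least 2803-fold and 5376-fold. So in signal, read by probes that differ, each undetected member was further below its guide than let-7b-3p and let-7d-3p were below theirs. Whether the probes of a guide also read other let-7 guides was not tested.

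Both arms were tested in 39 hairpins, with 37 different 5p arms. The 3p arm was dimmer than the 5p arm in 26 and brighter in 13. let-7a-1 had the lowest 3p to 5p ratio of all, and let-7d and let-7b were 6th and 7th from the bottom. As log2 of 3p over 5p, the ratio of let-7b was -7.39, -7.28, -7.37 and -7.54 in nephrectomized kidneys 1 to 4, against -7.61, -7.51, -7.73 and -7.65 in sham kidneys 1 to 4. The groups overlapped through nephrectomized kidney 4. The ratio of let-7d was -7.64, -7.39, -7.31 and -7.54 in nephrectomized kidneys, against -7.73, -7.63, -7.80 and -7.67 in sham kidneys. Here nephrectomized kidney 1 lay below sham kidney 2, and the other nephrectomized kidneys stood above all sham kidneys. The ratio of let-7a-1 was -9.73 ± 0.15 in nephrectomized and -9.84 ± 0.10 in sham kidneys (SD, n = 4 each), and the groups overlapped. Groups did not overlap in 4 of the 39 pairs (10.3%), each higher in nephrectomized kidneys, and no let-7 pair was among them.

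The ratio within an array is not moved by dividing the array by a constant. It differed by +0.23 ± 0.073 (SE, 95% interval +0.066 to +0.40) for let-7b, with a limma p of 0.160 adjusted across 39 pairs and an unadjusted limma p of 0.0123. For let-7d it differed by +0.24 ± 0.081 (SE, 95% interval +0.053 to +0.43), with a limma adjusted p of 0.167 and an unadjusted limma p of 0.0180, and for let-7a-1 by +0.11 ± 0.087 (SE, 95% interval -0.089 to +0.31), with a limma adjusted p of 0.441. Before scaling, let-7b-3p differed by -0.041 and let-7b-5p by -0.27, and let-7d-3p by -0.027 and let-7d-5p by -0.27. These 2 ratio differences thus came mostly with lower unscaled guide signals. The ratio is free of array brightness only where both arms follow it alike, which was not tested. No pair passed the adjusted threshold (0%), and 9 of 39 had an unadjusted limma p under 0.05, which is 23.1%, with 17.9% higher and 5.13% lower in nephrectomized kidneys. Among all pairs 28 of 39 (71.8%) had a ratio difference above 0. let-7b and let-7d ranked 3rd and 4th of the 39 by p, after miR-3584, at +0.34 ± 0.10 (SE), and miR-340, at +0.39 ± 0.12, both at a limma adjusted p of 0.160.

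**Figure D4:**
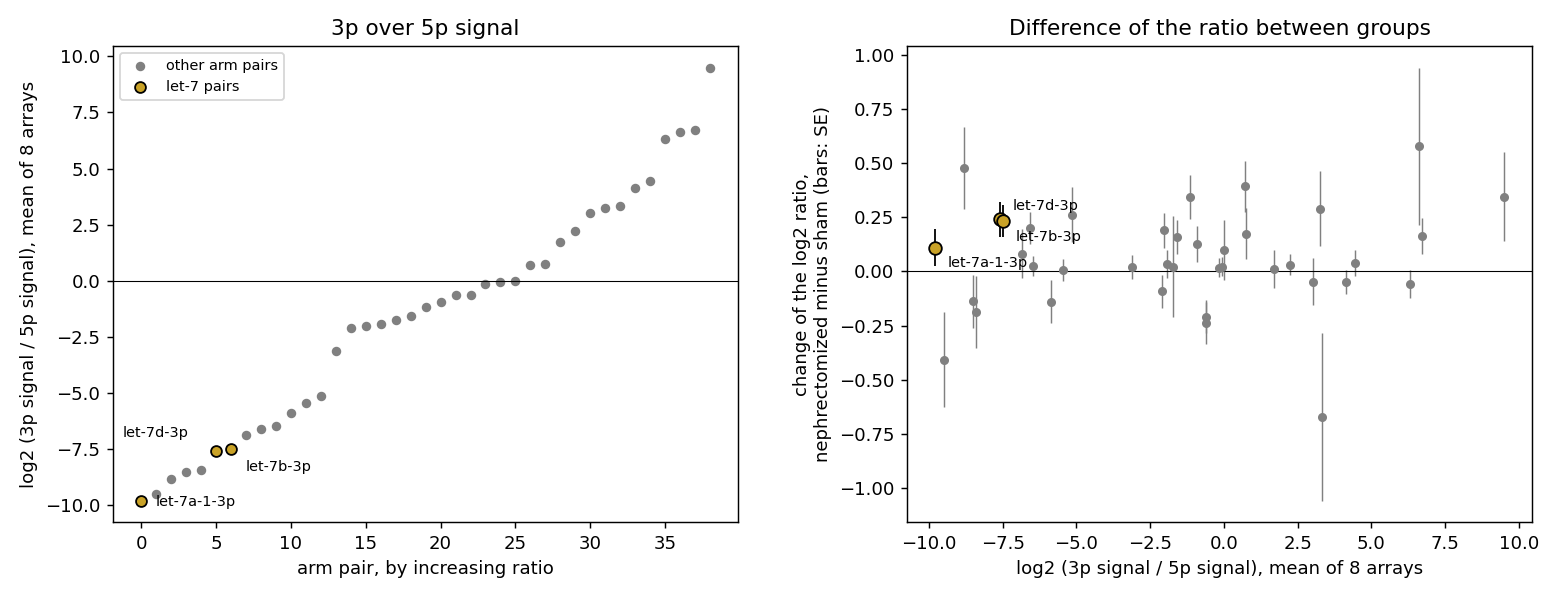
Ratio of 3p to 5p signal in the 39 arm pairs on the log2 scale, as means of 8 arrays (left), and its difference, nephrectomized minus sham, against that mean with bars for the SE (right). let-7a-1 is at the bottom of the left panel, let-7d and let-7b are 6th and 7th, and their ratio differences are +0.11, +0.24 and +0.23.

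The guides themselves differed little. The 9 5p arms of let-7 and miR-98 had log2 differences in scaled level from -0.045 to +0.027, with a median of -0.012; 4 of 9 were above 0 and none had an unadjusted limma p under 0.05. Before scaling the same 5p arms differed by -0.33 to -0.26. Of the arms of miR-99a, miR-99b, miR-100, miR-125a and miR-125b, whose hairpins accompany let-7 hairpins in several animal clusters, 7 of 11 were tested, 1 was above 0 and none had an unadjusted limma p under 0.05. The lowest p among them belonged to miR-99a-3p, at +0.17 ± 0.090 (SE), miR-125a-3p, at -0.17 ± 0.096, and miR-100-5p, at -0.076 ± 0.048.

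**Figure D5:**
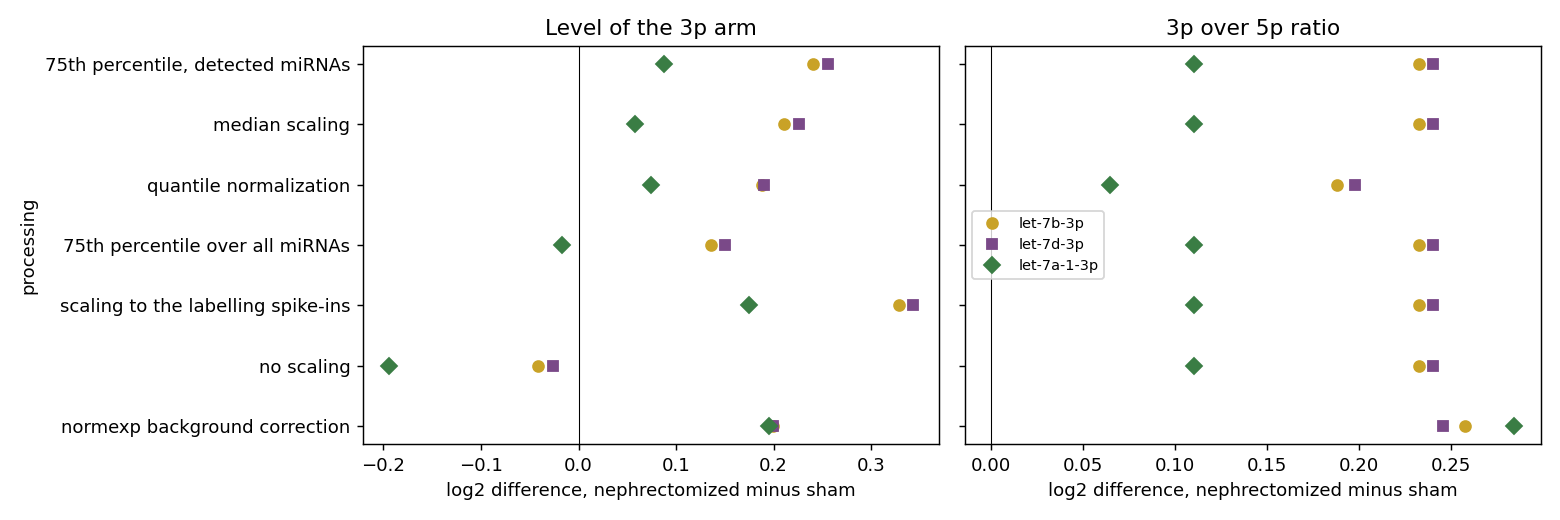
Log2 difference, nephrectomized minus sham, of the 3 detected members' level (left) and of their 3p to 5p ratio (right) under 7 ways of processing, listed from top to bottom with that of the report first. On the left all 3 points lie below 0 without scaling, at -0.19 to -0.027, and let-7a-1-3p also lies at -0.017 with the 75th percentile over all miRNAs. On the right every point lies above 0, between +0.065 and +0.28. A constant per array cancels in the ratio, so there only quantile normalization and normexp could move the points.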

How the data were processed

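Per the file headers, each deposited scanner table is linear intensity output of Agilent Feature Extraction 12.0.3.1, with background subtracted and a spatial trend removed. The deposited value table, an alternative, holds log2 values in the same direction (r of 0.951 to 0.982 with centred scanner values across 214 miRNAs per array, which are not independent replicates). All 637 of its entries have a median within 0.001 of 0, its column medians ran from 0.052 to 0.17 in nephrectomized and -0.25 to -0.052 in sham arrays, and the rule of its shift per array is unknown. Control and outlier spots (8.10% to 9.01% per array) were left out. No saturated spot was found. Spots of a probe, then probes of a miRNA, were averaged, scaled to the 75th percentile over 214 miRNAs detected on all arrays, floored at 0.925 and put on the log2 scale. The 238 miRNAs detected on at least 4 of 8 arrays, and the log2 3p minus 5p ratio of 39 arm pairs, were tested with limma 3.58.1 in R 4.3.3 (lmFit, eBayes, group only, two-sided, Benjamini-Hochberg), after the fit was tested on simulated data. The number of arrays, taken as 1 rat each, limits the precision, and p-values measure the spread between these arrays. Named miRNAs are the members, all let-7 and miR-98 arms, the miR-99, miR-100 and miR-125 arms with the lowest p, the 2 nearest patterns of each member and the 2 arm pairs with the lowest p. Members and lists were chosen with earlier results of these data known. Other scalings, background correction, summaries, filters, a replicate block and leaving out each array were tried.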

Additional observations from a re-analysis of the deposited data

Results flagged for a closer look

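Among 44 groups of 4 arrays searched (the 3p and 5p arms of let-7 and miR-98 and the ratios of the arms), 4 had 1 array far from the other 3, where chance gives about 1 in 20, or 2.2. let-7c-5p had a scaled signal of 4839 in nephrectomized kidney 1, against 5237 to 5293 in the other nephrectomized kidneys. let-7e-5p had 888.2 in nephrectomized kidney 1, against 970.0 to 983.6 in the others. The undetected let-7f-1-3p had 1.08 in sham kidney 3, against 2.15 to 2.20 in the other sham kidneys. The undetected let-7f-2-3p had 0.736 in nephrectomized kidney 1, against 0.358 to 0.370 in the other nephrectomized kidneys. None of the 3 detected members was among them.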

How the results depend on the processing

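In 22 alternatives, the ratio differences of let-7b, let-7d and let-7a-1 stayed above 0, at +0.19 to +0.26, +0.18 to +0.25 and +0.065 to +0.28 outside the fits that leave out 1 array. Several of these could not move a ratio difference. A constant per array cancels, as in median, spike-in, all-miRNA 75th percentile and no scaling. Changed filters, trend with robust and the replicate block alter the p but not the ratio difference. Leaving out each array in turn gave +0.19 to +0.28, +0.19 to +0.30 and +0.045 to +0.16. For the levels of let-7b-3p, let-7d-3p and let-7a-1-3p it gave +0.19 to +0.27, +0.20 to +0.33 and +0.024 to +0.13, the lowest let-7a-1-3p value without nephrectomized replicate 3. The levels turned with no scaling, to -0.041, -0.027 and -0.19 (limma adjusted p of 0.454, 0.746 and 0.0409). There let-7a-1-3p passed the threshold as lower in nephrectomized kidneys. Its level also turned with the 75th percentile over all miRNAs, to -0.017. The normexp background correction added an offset of 50 to the signals, more than any scaled signal of the 3 members. With normexp the levels were +0.20, +0.20 and +0.19 (limma adjusted p of 0.0024, 0.00237 and 0.00225) and the ratios +0.26, +0.25 and +0.28 (0.00262, 0.0014 and 0.000587), all past the threshold. How much of this came from the offset was not tested. No scaling, the 75th percentile over all miRNAs and normexp moved the median of all miRNAs to -0.29, -0.11 and +0.13. miRNAs called were 0 in the report's setting, 161 with no scaling, 158 with normexp, 19 with the 75th percentile over all miRNAs, 7 each with total gene signal, the longest probe, and trend with robust, 5 with the deposited table, 1 each with quantile, spike-in scaling and detection on all 8 arrays, and 0 to 5 leaving out an array (5 without nephrectomized replicate 3, 1 without nephrectomized replicate 1). Arm pairs called were 0, but 23 with normexp, 4 with no filter, 2 with total gene signal and 1 with the deposited table; leaving out an array gave 0. Calls at an unadjusted p split 37 higher to 11 lower in the report's setting, 31 to 23 with median scaling, 20 to 89 with the 75th percentile over all miRNAs, 1 to 172 with none, 37 to 22 with quantile, 33 to 1 with spike-ins, 141 to 21 with normexp, 34 to 18 with total gene signal and 27 to 32 with the deposited table. The cause was not tested. Whether replicate numbers pair the samples is not known. Between arrays of the same number the correlations of deviations were 0.053, -0.077, 0.28 and -0.23, too few to settle it. The second index of the array's position equals the replicate number in both groups, so a replicate block is also a block of that index. With a replicate block 0 miRNAs and 0 pairs were called. The slide as a block could not be fitted, since there is 1 slide. With 4 undetected members at control level, signal over background limits what can be said of them.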
